A study of Danio rerio with 8 samples.

Results

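The histone deacetylase genes examined here are hdac1, hdac3, hdac4, hdac5, hdac6, hdac8, hdac9b, hdac10 and hdac11 of zebrafish. They were taken by name from 2 tables of RNA-seq counts, and all 9 were found in both tables among 31172 gene rows. RNA had been sequenced from whole AB/TU embryos at 48 hpf and from nkx2.5:ZsYellow+ cells sorted at 28 hpf. In whole embryos, 1 library came from crg mutants and 1 from their WT control, and 1 came from Cyp26-deficient embryos and 1 from their WT control. The paper's RNA-seq of crg mutants used WT siblings as the control. Whether heterozygous carriers of the allele were among these siblings is not stated for the RNA-seq. In its counts of ventricular cardiomyocytes in crosses of crg carriers, the paper pooled WT and heterozygous siblings as the control. In sorted cells, 1 library came from Hdac1-depleted embryos and 1 from a WT control, and 1 came from Cyp26-deficient embryos and 1 from a further WT control. The crg allele (nl18) is an ENU-induced change at the splice donor of exon 7 of hdac1. Hdac1 depletion used a morpholino (MO), an antisense oligonucleotide, and Cyp26 deficiency used MOs against cyp26a1 and cyp26c1, which encode enzymes that break down retinoic acid. A p53 MO was part of every injection. ZsYellow is driven by nkx2.5 regulatory DNA, so the sort can hold cardiomyocytes as well as cardiac and pharyngeal arch progenitors. Because there was 1 library per condition, no difference has a replicate check and no p-value is given.

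Histone deacetylases remove acetyl groups from lysines of histones and other proteins. Class I enzymes (hdac1, hdac3 and hdac8 here) sit mostly in the nucleus. Hdac1 is the catalytic subunit of the Sin3, NuRD and CoREST corepressor complexes, and Hdac3 is that of the NCoR and SMRT complexes, while human HDAC8 works outside such complexes and deacetylates the cohesin subunit SMC3. Class IIa enzymes (hdac4, hdac5 and hdac9b) have little deacetylase activity of their own, bind MEF2 transcription factors and shuttle between nucleus and cytoplasm, and their mouse homologs Hdac5 and Hdac9 restrain growth of the heart. Class IIb holds Hdac6, a cytoplasmic deacetylase of tubulin, and Hdac10, a polyamine deacetylase. Hdac11 is the only class IV enzyme. The question set by the design is which of the other members differ when hdac1 is mutated or Hdac1 is depleted.

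The members lie on 9 different chromosomes (Zv9). hdac1 (ENSDARG00000015427) spans 31054097 to 31064046 of chromosome 19, hdac3 (ENSDARG00000037514) 12437128 to 12464078 of chromosome 14, and hdac8 (ENSDARG00000003021) 53111279 to 53204522 of chromosome 7. Among the class IIa genes, hdac4 (ENSDARG00000041204) spans 46952272 to 47273523 of chromosome 9, hdac5 (ENSDARG00000075139) 23171218 to 23267344 of chromosome 3, and hdac9b (ENSDARG00000056642) 21928132 to 22060093 of chromosome 16. The class IIb genes are hdac6 (ENSDARG00000008384), at 7930067 to 7981022 of chromosome 8, and hdac10 (ENSDARG00000086458), at 5349617 to 5368269 of chromosome 25. hdac11 (ENSDARG00000037346) lies at 24910200 to 24947336 of chromosome 11. The span of hdac4 holds another gene, SLC4A3, on the same strand. The row named hdac11 lies between cntn2 and trib3, whereas RefSeq (GRCz12tu) places hdac11 beside fbln2, where the tables have a different row named HDAC11 (2 of 2). Which of these rows holds hdac11 was therefore not settled.

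The hdac8 row extends beyond the shorter hdac8 transcripts. Its transcripts ENSDART00000009184 (11 exons) and ENSDART00000108984 (12 exons) reach no farther than 53165174, but ENSDART00000083190 (39 exons) runs on to 53204522. Overlapping exons were merged into 42 blocks, of which 13 lie up to 53165174 and 29 lie beyond it and belong to the long transcript alone. In RefSeq the gene next to hdac8 on that side is phka1a, which encodes a phosphorylase kinase subunit. The tables have the row of bmp15 there instead. Both values are given for hdac8, that of the row and that of the 13 blocks, and the division was chosen after the values had been seen.

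Gene counts summed to 11070144 to 30257543 per whole-embryo library and to 13133598 to 19338815 per sorted-cell library. They were divided by size factors taken within each table, and levels are compared only within a table. A gene was called raised or lowered when it differed more than 2-fold from its WT control, and only genes averaging 10 normalized counts or more over the 4 libraries of their table were considered. This left 19888 genes in whole embryos and 20033 in sorted cells. It left 8 of the 9 members in each table, hdac11 being too low in both. Brackets after a fold give its 95% exact (Clopper-Pearson) interval, which covers counting error only. WT libraries of the same age and tissue also differed. The WT control of the crg pair and the WT control of the Cyp26 pair were more than 2-fold apart for 24.9% of genes, and the sorted WT controls for 15.2%.

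Per kilobase of merged exons, hdac1 had the highest level of the family in every library. In the WT control of the crg pair it had 2357 normalized counts per kb, against 488 for hdac3, the next member. In the WT control of the Cyp26 pair in whole embryos the values were 4253 for hdac1 and 503 for hdac3. hdac10, hdac8 and hdac6 followed in the WT control of the crg pair at 145, 133 and 108 per kb, hdac8 being taken over its whole row, and neighbours in that order had overlapping counting intervals. hdac4, hdac9b and hdac5 stood lower, at 43.0, 34.8 and 33.5 per kb, again with overlapping intervals. In the other WT control the same 3 genes stood in the order hdac6, hdac8 and hdac10, at 140, 115 and 65.1 per kb with intervals that did not overlap.

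In sorted cells the class IIa genes held higher places in the order. hdac1 stood at 4208 and 4255 normalized counts per kb in the WT controls of the Hdac1 and Cyp26 pairs. hdac4 came next, at 354 and 295 per kb, then hdac5 at 179 and 164. The intervals of hdac5 and of hdac3, the next in order, overlapped in both controls. hdac9b followed at 119 and 116 per kb. The remaining tested members were at 54.0 to 78.6 per kb in these controls, hdac8 being taken over its whole row. On its own blocks alone, hdac8 stood higher, at 130 and 122 per kb in the WT controls of the Hdac1 and Cyp26 pairs. These values lay above those of hdac9b, but no interval was taken for them, so that order was not tested. hdac11 stood at 2.83 and 10.5 per kb, which rests on 2 and 5 counts.

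**Figure D1:**
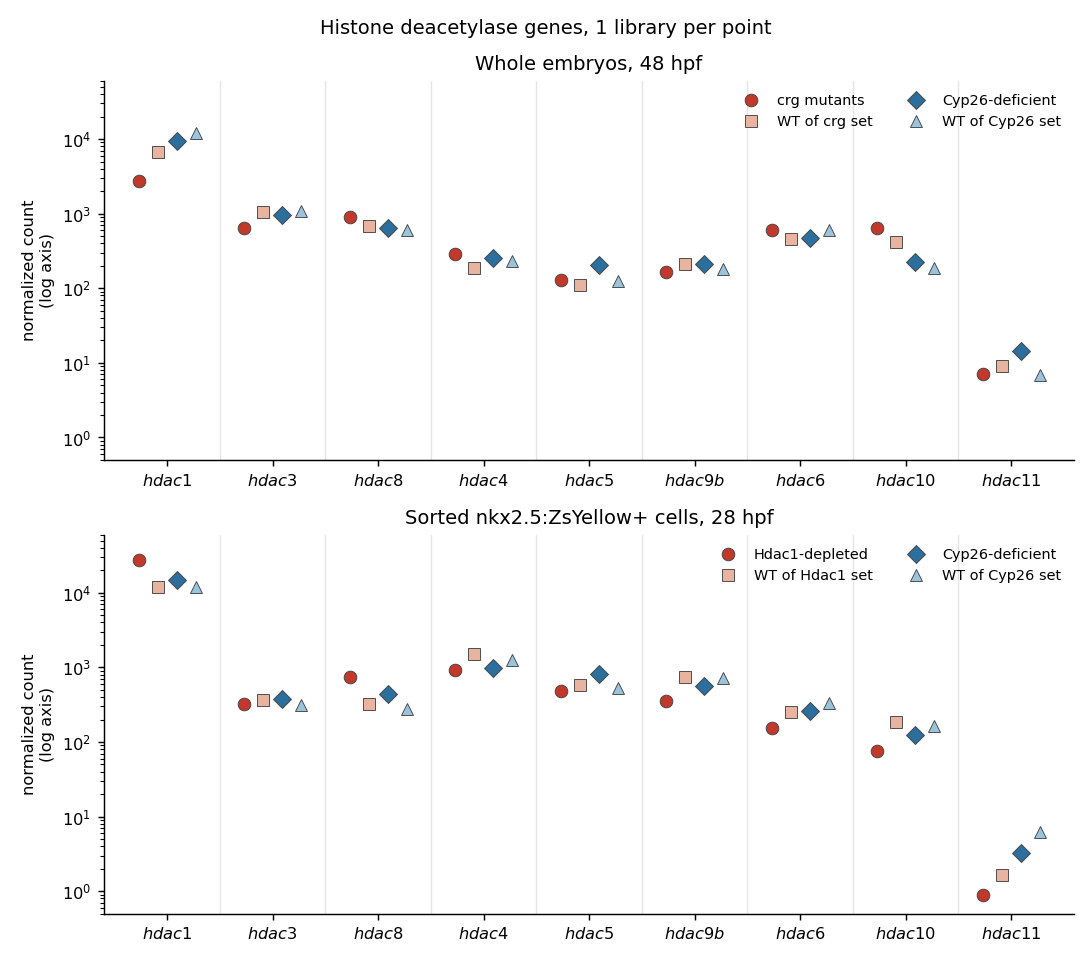
Normalized counts (log axis) of the 9 histone deacetylase genes in whole embryos at 48 hpf (top) and in nkx2.5:ZsYellow+ cells from 28 hpf embryos (bottom); each point is 1 library, with no error bars. hdac1 lies above all other members in each of the 8 libraries, lowest in crg mutants (2752) and highest in Hdac1-depleted sorted cells (27452), and hdac11 is near 0.

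The hdac1 row, read first because it is the targeted gene, had 2752 normalized counts in crg mutants, against 6725 in the WT control. It had 9539 in Cyp26-deficient whole embryos and 12135 in their WT control. It was therefore lowered in crg mutants, to 0.409 times (0.387 to 0.432), while it was at 0.786 times (0.770 to 0.803) in Cyp26-deficient whole embryos. The WT libraries differed by a factor that was not small next to these values: the log2 difference of the crg pair's WT control minus that of the Cyp26 pair was -0.85. Whether carriers of the crg allele among the siblings had a part in this difference was not tested. Against the WT control of the other pair, hdac1 of crg mutants was at 0.227 times and hdac1 of Cyp26-deficient embryos at 1.42 times, so the direction held for crg mutants and turned for Cyp26 deficiency.

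In sorted cells, hdac1 had 27452 normalized counts in the Hdac1-depleted library and 12004 in its WT control. The values were 14836 in Cyp26-deficient cells and 12138 in their WT control. hdac1 RNA was raised in Hdac1-depleted cells, to 2.29 times (2.24 to 2.33). The morpholino acts on translation, so the level of hdac1 RNA does not check the label of that library. On the whole row the sorted WT controls were close, with a log2 difference of -0.02 (-0.05 to 0.02), but they differed along the gene, as given below.

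The exons of hdac1 showed what the gene row hid. In crg mutants, all 12 merged blocks were lowered more than 2-fold. Exon 7 of the 14-exon transcript (31059163 to 31059255), the exon whose splice donor carries the crg change, had 5 counts in crg mutants against 129 in the WT control, or 0.0306 times (0.00977 to 0.0732). Its neighbours, exons 6 and 8, were at 0.398 times (0.319 to 0.494) and 0.366 times (0.272 to 0.488). In a transcript that keeps intron 7, 1 exon (31059163 to 31059450) covers the same bases. It had 39 counts in crg mutants against 20 in the WT control, or 1.54 times (0.876 to 2.78). The merged block of exons 7 and 8 with intron 7 was at 0.300 times (0.240 to 0.372). Counts were split between transcripts, so 0.0306 times holds for the 14-exon transcript alone. The paper describes skipping of exon 7 or retention of introns 6 and 7. In Hdac1-depleted cells exon 7 moved with its neighbours, at 2.47 times (2.24 to 2.73), and all 12 blocks were raised more than 2-fold.

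Cyp26-deficient sorted cells differed along the gene. The first 5 blocks of hdac1 together were at 2.79 times (2.56 to 3.04) their WT control, while the last block was at 0.8004 times (0.766 to 0.837). In Hdac1-depleted cells the same parts were at 2.81 times (2.65 to 2.99) and 2.18 times (2.11 to 2.25). The fold of 1.22 (1.19 to 1.25) of the whole row in Cyp26-deficient sorted cells is thus a ratio of gene counts that joins blocks that went in opposite directions. Of the 12 blocks, 10 were above their WT control, 7 of them more than 2-fold, and 2 were below it. The median block was at a log2 fold change of 1.21. The sorted WT controls also differed along hdac1. On the first 5 blocks the WT control of the Hdac1 pair had 1265 normalized counts and that of the Cyp26 pair 863. On the last block they had 4381 and 5118. Cyp26-deficient sorted cells had 2412 and 4096 on these parts. Over 2827 genes with 1 transcript, at least 6 exons and at least 100 counts in each sorted library, the median share of counts 5′ of the midpoint of the exons was 45.3% in Cyp26-deficient sorted cells and 40.6% in their WT control. It was 42.3% in Hdac1-depleted cells and 40.9% in their WT control. The part of that shift in the hdac1 values was not tested.

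**Figure D2:**
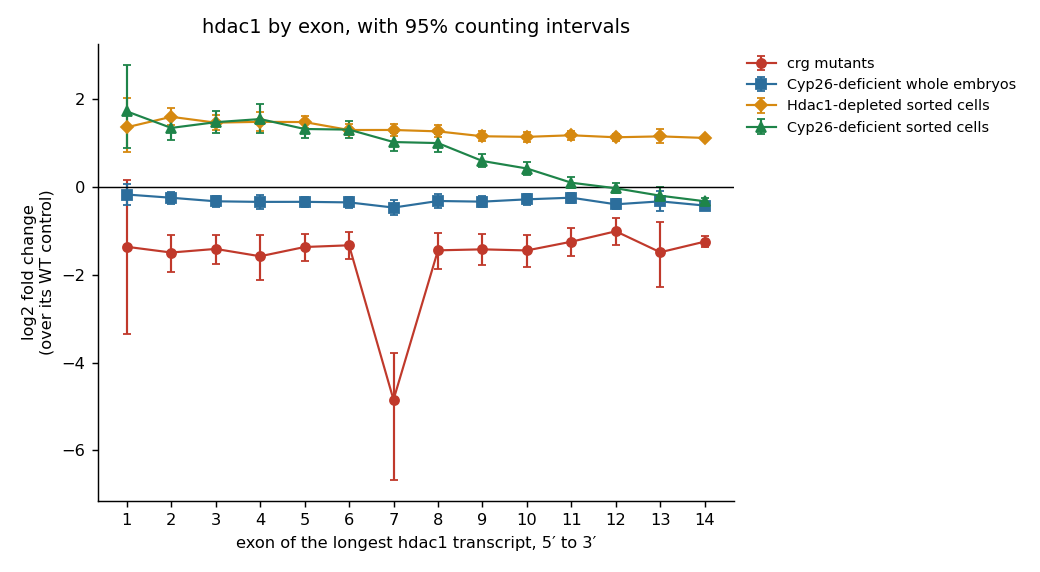
Log2 fold change over its WT control (vertical axis) of each of the 14 exons of the longest hdac1 transcript, 5′ to 3′ (horizontal axis), in the 4 comparisons; bars are 95% counting intervals. Exon 7 stands apart in crg mutants at -4.85, and the line of Cyp26-deficient sorted cells falls from the 5′ exons to -0.32 at the last exon.

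In crg mutants, no member other than hdac1 was past 2-fold on its row. Of the 8 members tested, 0 were raised and 1, hdac1 itself, was lowered; over all genes tested, 6.43% were raised and 7.78% lowered. The median log2 fold change of the 8 members was 0.29, and that of all tested genes was 0.01. Counting intervals lay above 1-fold for hdac4, hdac6, hdac8 and hdac10 and below it for hdac1 and hdac3. Those of hdac5 and hdac9b spanned it.

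hdac3, the other class I corepressor enzyme, had 637 normalized counts in crg mutants against 1044 in the WT control, or 0.610 times (0.539 to 0.691). It was thus lower together with hdac1, though by less, and 14 of its 15 exon blocks were lower. The WT control of the Cyp26 pair, with 1077, was close to that of the crg pair, and hdac3 was at 0.591 times against it.

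hdac8 had 891 normalized counts in crg mutants against 691 in the WT control on the whole row, or 1.29 times (1.13 to 1.47). Its 13 own blocks behaved differently from the rest of the row. They had 537 normalized counts in crg mutants against 263 in the WT control, or 2.04 times (1.68 to 2.48), past the 2-fold limit. The other WT library had 259 on these blocks. The 29 blocks of the long transcript alone had 355 in crg mutants against 428 in the WT control, or 0.829 times (0.691 to 0.994), and their interval spanned 1 against the other WT library. The last block, which holds the 3′ end of hdac8, had 169 and 82.3 normalized counts.

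**Figure D3:**
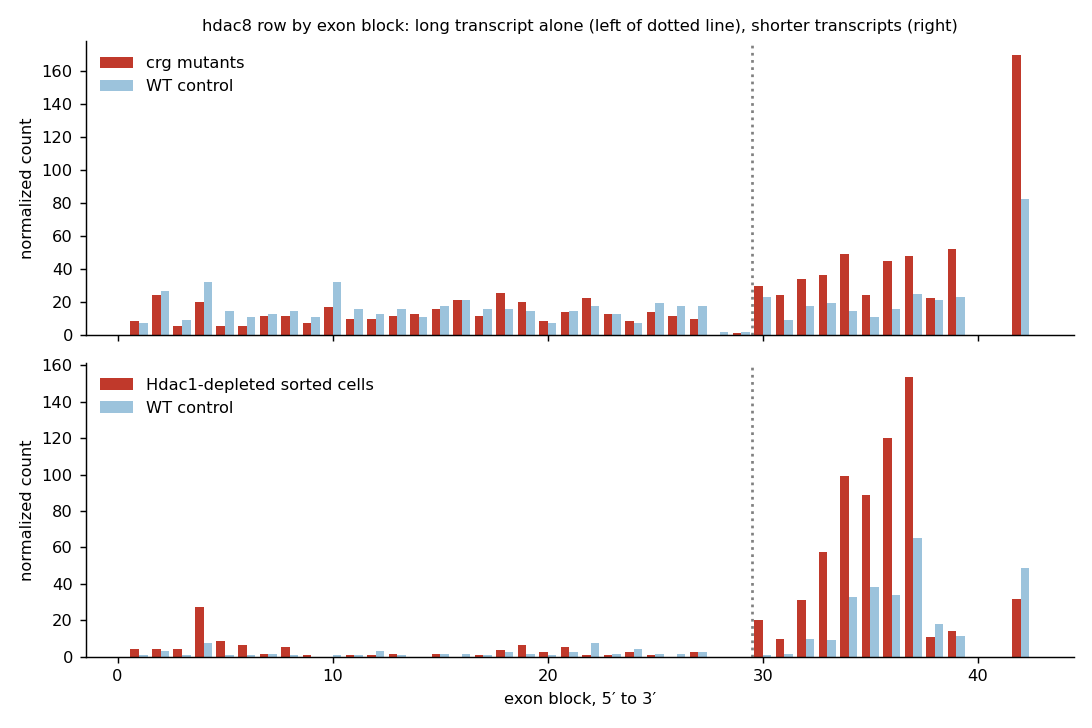
Normalized counts of the 42 merged exon blocks of the hdac8 row, 5′ to 3′, in crg mutants and their WT control (top) and in Hdac1-depleted sorted cells and their WT control (bottom), 1 library per colour and no error bars. Right of the dotted line lie the 13 blocks up to the end of the shorter transcripts, which hold 537 normalized counts in crg mutants against 263 in the WT control; left of it the blocks of the long transcript alone hold 355 and 428.

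The class IIa genes had low counts in whole embryos. hdac4 had 285 normalized counts in crg mutants against 184 in the WT control, or 1.55 times (1.21 to 1.98). Against the other WT library it was at 1.22 times. hdac5 had 127 and 109, and its interval of 0.832 to 1.64 spanned 1. hdac9b had 167 and 215, and its interval of 0.597 to 1.01 also spanned 1.

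Both class IIb genes were higher in crg mutants. hdac10 had 641 normalized counts in crg mutants against 419 in the WT control, or 1.53 times (1.305 to 1.80), and 16 of its 18 blocks with at least 10 normalized counts were higher. hdac10 also differed between the WT libraries, with 188 in the WT control of the Cyp26 pair, so it was at 3.41 times against that library. hdac6 had 602 in crg mutants against 460.0 in the WT control, or 1.31 times (1.12 to 1.53). The other WT library had 595, which is 1.01 times (log2 interval -0.16 to 0.19), so the higher hdac6 rests on 1 WT library. Together, the 8 members other than hdac1 had 3358 normalized counts in crg mutants against 3131 in the WT control, or 1.07 times (1.01 to 1.14). This sum, like those given for the other comparisons, takes hdac8 on its whole row, with the blocks of the long transcript alone.

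Markers of other tissues moved in the same crg library. Their counts stand beside 6.43% raised and 7.78% lowered over all genes tested. All 15 lens crystallin genes were lowered, with a summed level of 3519 normalized counts in crg mutants against 62868 in the WT control, and crybgx was at 0 in crg mutants. Of the other marker lists, 2 of 9 neural crest and pigment genes, 2 of 9 erythrocyte genes, 1 of 13 skeletal muscle genes and 1 of 7 second heart field genes were lowered and 1 erythrocyte gene was raised, while neuron, endothelium, pharyngeal endoderm and proliferation lists had none past 2-fold. Cardiomyocyte genes were lowered in 6 of 8 cases, with sums of 8133 and 11305. In whole embryos, fewer cells of a type and less RNA per cell cannot be told apart, and the part of these shifts in the values of the deacetylases was not tested.

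After Hdac1 depletion, the sorted cells had members past 2-fold in both directions. Of the 8 members tested, 2 were raised, hdac1 and hdac8, and 2 were lowered, hdac9b and hdac10. Both lowered members were close to the limit: their intervals included 2-fold, and their median exon blocks, at log2 fold changes of -0.85 for hdac9b and -0.98 for hdac10, lay within it. The median of hdac10 rests on 3 blocks. Over all genes tested, 12.4% were raised and 12.7% lowered. The median log2 fold change of the members was -0.49, against -0.01 over all tested genes. The 8 members other than hdac1 together had 3059 normalized counts in Hdac1-depleted cells against 3957 in the WT control, or 0.773 times (0.740 to 0.808).

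hdac8 had 733 normalized counts in Hdac1-depleted cells against 322 in the WT control, with 280.1 in the other WT control. This was 2.27 times (2.01 to 2.57). Here most counts lay on the 13 own blocks, with 636 in Hdac1-depleted cells against 270 in the WT control, or 2.36 times (2.07 to 2.70). The 29 blocks of the long transcript alone were higher too, with 96.7 and 52.9, or 1.83 times (1.33 to 2.53), and at 3.92 times against the other WT control. The higher level lay on the 5′ blocks of these 13, from block 30 with 20.4 and 0.827 normalized counts to block 37 with 154 and 65.3. Toward the 3′ end, block 38 had 10.6 and 18.2, and the last block had 31.9 in Hdac1-depleted cells against 48.8 in the WT control, with intervals that spanned 1. hdac3 was close in both, with 327 and 362 normalized counts and an interval of 0.783 to 1.04.

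The class IIa members hdac4, hdac5 and hdac9b were lower in Hdac1-depleted cells, and hdac9b passed the limit. hdac9b had 359 normalized counts in Hdac1-depleted cells against 733 in the WT control, or 0.490 times (0.435 to 0.552). Its last and most covered block had 146 and 360.5. The other WT control had 717, against which hdac9b was at 0.501 times, just inside the limit. hdac4, the second most abundant member per kb in the sorted WT controls, had 930.0 and 1517 normalized counts, or 0.613 times (0.568 to 0.662), and 21 of its 23 covered blocks were lower. hdac5 had 480.1 and 584, or 0.822 times (0.734 to 0.921), and its interval spanned 1 against the other WT control.

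The class IIb genes were lower as well. hdac10 had 76.3 normalized counts in Hdac1-depleted cells against 184 in the WT control, or 0.414 times (0.319 to 0.533). These values rest on 86 and 223 counts. Exon blocks 4 to 8 had 0 counts in Hdac1-depleted cells, while the last block, with 24.0 normalized counts against 29.8 in the WT control, was close. Only 3 of the 20 blocks of hdac10 averaged at least 10 normalized counts in sorted cells, so single blocks are near the floor. hdac10 was at 0.469 times against the other WT control. hdac6 had 153 and 252, or 0.605 times (0.499 to 0.732), and was at 0.458 times against the other WT control, which would pass the limit.

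The cells of the Hdac1-depleted library differed in other markers. The counts of these stand beside 12.4% raised and 12.7% lowered over all genes tested. Endothelial genes were lowered in 6 of 6 cases, with summed levels of 3394 normalized counts in Hdac1-depleted cells against 18350 in the WT control. Neural crest and pigment genes were raised in 7 of 9 cases and lowered in 1, with sums of 11378 and 1954. Of 13 skeletal muscle genes 2 were lowered, and of 6 pharyngeal endoderm genes 1 was raised and 1 lowered, which is near the shares over all genes. Erythrocyte genes were lowered in 7 of 9 cases, with sums of 759 and 2456, and the median log2 fold change over 15 proliferation genes was -0.70, with 1 lowered. Cardiomyocyte genes were lowered in 1 of 8 cases, with sums of 47076 and 50271, 4 of 9 neuron genes and all 10 tested lens crystallin genes were lowered, and no gene of the cardiomyocyte list or of the second heart field list (1 of 7 lowered) was at 0 in a sorted library. The part of these shifts in the values of the deacetylases was not tested.

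Set side by side, the values after loss of Hdac1 differ in age, tissue and kind of loss, so the differences between them were not tested and the values are only set out together. hdac8 was higher in both settings. On its row the log2 fold change was 0.37 (0.18 to 0.55) in crg mutants and 1.18 (1.01 to 1.36) in Hdac1-depleted cells. On its own blocks, a division chosen after the values had been seen, it was 1.03 (0.75 to 1.31) and 1.24 (1.05 to 1.43). These intervals lay above 0 against the other WT control as well. The median block of the row in crg mutants was at 0.07. The parts of the gene that differed were not the same: the last block was higher in crg mutants and not in Hdac1-depleted cells. Of the members other than hdac1, hdac4, hdac6 and hdac10 had intervals on opposite sides. That of hdac6 in crg mutants spanned 0 against the other WT control, while those of hdac4 and hdac10 kept their side in both settings. hdac10 had log2 fold changes of 0.61 (0.38 to 0.85) in crg mutants and -1.26 (-1.65 to -0.91) in Hdac1-depleted cells. For hdac4 they were 0.63 (0.28 to 0.99) and -0.71 (-0.82 to -0.60). hdac8 was also higher in Cyp26-deficient sorted cells, with a log2 fold change of 0.67 (0.43 to 0.91) on its row. On their rows, in both sorted comparisons, hdac1 and hdac8 lay above both WT controls, and hdac4, hdac9b and hdac10 lay below them. For hdac1 in Cyp26-deficient sorted cells this did not hold along the gene. Its last block had 4096 normalized counts, below the 5118 of their own WT control and the 4381 of the other. hdac5 went opposite ways against its own WT control, at -0.28 (-0.45 to -0.12) after Hdac1 depletion and 0.60 (0.43 to 0.78) after Cyp26 deficiency.

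**Figure D4:**
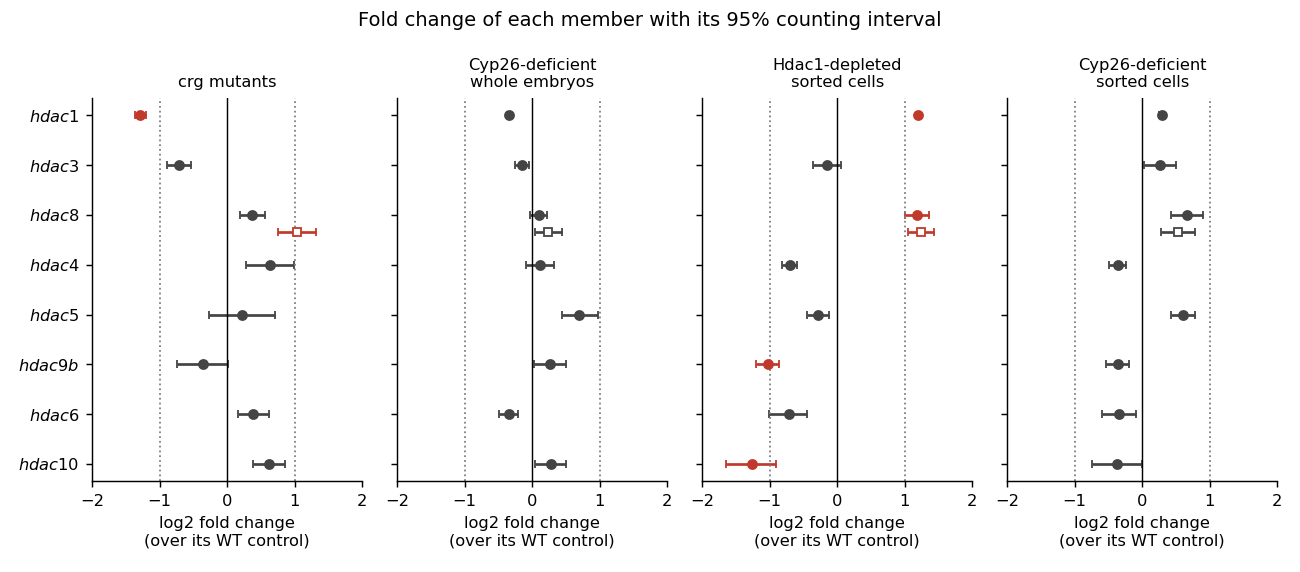
Log2 fold change of 8 members over their WT control in the 4 comparisons (horizontal axes), with 95% counting intervals as bars; dotted lines mark 2-fold, red marks values past it, and open squares under hdac8 give its 13 own blocks. Of the rows, hdac1 in crg mutants (-1.29) and hdac1, hdac8, hdac9b and hdac10 in Hdac1-depleted sorted cells lie past 2-fold. So do the open squares of hdac8 in crg mutants (1.03) and in Hdac1-depleted sorted cells (1.24). None lie past it in the Cyp26-deficient libraries.

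No member was past 2-fold in Cyp26-deficient whole embryos. Of the 8 members tested, 0 were raised and 0 lowered, where 3.5% and 2.59% of all tested genes were. The largest fold was that of hdac5, a class IIa gene, with 204 normalized counts in Cyp26-deficient embryos and 126 in the WT control, or 1.63 times (1.35 to 1.96). It was the 1 member whose interval lay on the same side against both WT libraries, at 1.87 times against the WT control of the crg pair. hdac3 had 970.4 and 1077 normalized counts, or 0.901 times (0.840 to 0.966), and hdac6 had 468 and 595, or 0.786 times (0.713 to 0.866). Both intervals spanned 1 against the WT control of the crg pair. hdac10 had 228 and 188, or 1.21 times (1.03 to 1.42), but was at 0.544 times against the WT control of the crg pair. The folds of hdac4, hdac8 and hdac9b lay between 1.067 and 1.196. The 8 members other than hdac1 summed to 2987 and 3002 normalized counts, or 0.995 times (0.956 to 1.04). In this library 6 of 9 erythrocyte genes were lowered, with sums of 31191 normalized counts in Cyp26-deficient embryos and 91825 in the WT control, and 3 of 15 lens crystallin genes were lowered. Of 8 cardiomyocyte genes, 1 was raised and 1 lowered, and the other marker lists had none past 2-fold. The part of these shifts in the values of the deacetylases was not tested.

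Cyp26-deficient sorted cells also had 0 members raised and 0 lowered on their rows, where 8.81% and 7.6% of all tested genes were. hdac8 had 445 normalized counts in Cyp26-deficient cells and 280.1 in the WT control, or 1.59 times (1.35 to 1.88), and 1.44 times (1.21 to 1.72) on its own blocks. The 29 blocks of the long transcript alone were past 2-fold, with 79.0 and 24.7 normalized counts from 74 and 20 counts, or 3.20 times (1.93 to 5.54), but were at 1.49 times against the other WT control. hdac5 had 811 and 534, or 1.52 times (1.35 to 1.71), with 15 of 18 covered blocks higher. hdac3 had 376 and 312, with an interval of 1.02 to 1.42 that spanned 1 against the other WT control. Its row value also joined parts that went opposite ways. Of its 10 covered blocks, the 6 toward the 5′ end were higher and the 4 at the 3′ end lower, the latter with intervals that spanned 1.

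The other members were lower in these cells by similar factors. hdac4 had 983 normalized counts in Cyp26-deficient cells and 1265 in the WT control, or 0.777 times (0.710 to 0.8501). hdac9b had 558 and 717, or 0.778 times (0.690 to 0.877). hdac10 was at 0.773 times (0.598 to 0.998) and hdac6 at 0.788 times (0.660 to 0.9399). The first 3 were lower against both WT controls, and hdac6 was at 1.04 times against the other one. The 8 members other than hdac1 summed to 3564 and 3610.5 normalized counts, or 0.987 times (0.939 to 1.04). In this library 6 of 13 skeletal muscle genes were raised, with sums of 37599 and 22270.0, 3 of 9 neural crest and pigment genes were raised, and 6 of 10 tested lens crystallin genes were raised and 1 lowered, from low counts. Of the remaining lists, 1 cardiomyocyte, 2 second heart field, 2 neuron, 2 erythrocyte and 1 pharyngeal endoderm genes were raised, and 1 neuron and 1 pharyngeal endoderm gene were lowered. Their part in these values was not tested.

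The balance within the family followed hdac1. Its share of the counts on the 9 genes in crg mutants was 45.0% (exact interval of 43.5% to 46.5%), against 68.2% (67.0% to 69.5%) in the WT control. The difference was -23.2 percentage points (-25.1 to -21.3). hdac8, on its whole row, took 14.6% in crg mutants against 7.01% in the WT control, hdac10 took 10.5% and 4.25%, and hdac6 took 9.85% and 4.67%. Of the 631 counts of the hdac8 row in crg mutants, 380 lay on its 13 own blocks, and of the 386 in the WT control, 147 did. The share of hdac3 was 10.4% and 10.6%, since it was lower along with hdac1.

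In Hdac1-depleted cells, hdac1 took 89.97% (89.7% to 90.3%) of the family's counts, against 75.2% (74.6% to 75.8%) in the WT control. hdac4 took 3.05% there and 9.51% in the WT control, and hdac9b took 1.18% and 4.59%. A higher hdac1 by itself lowers these shares. Of the counts on the 8 members other than hdac1, hdac4 took 30.4% in Hdac1-depleted cells and 38.3% in the WT control. On that basis hdac9b took 11.7% and 18.5%, and hdac8, on its whole row, took 24.0% and 8.15%. Under Cyp26 deficiency the share of hdac1 was 76.2% in whole embryos and 80.2% in their WT control, and 80.6% in sorted cells and 77.1% in their WT control. The whole-embryo difference of -4.02 points turned to 7.92 points against the WT control of the crg pair, where hdac1 took 68.2%.

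**Figure D5:**
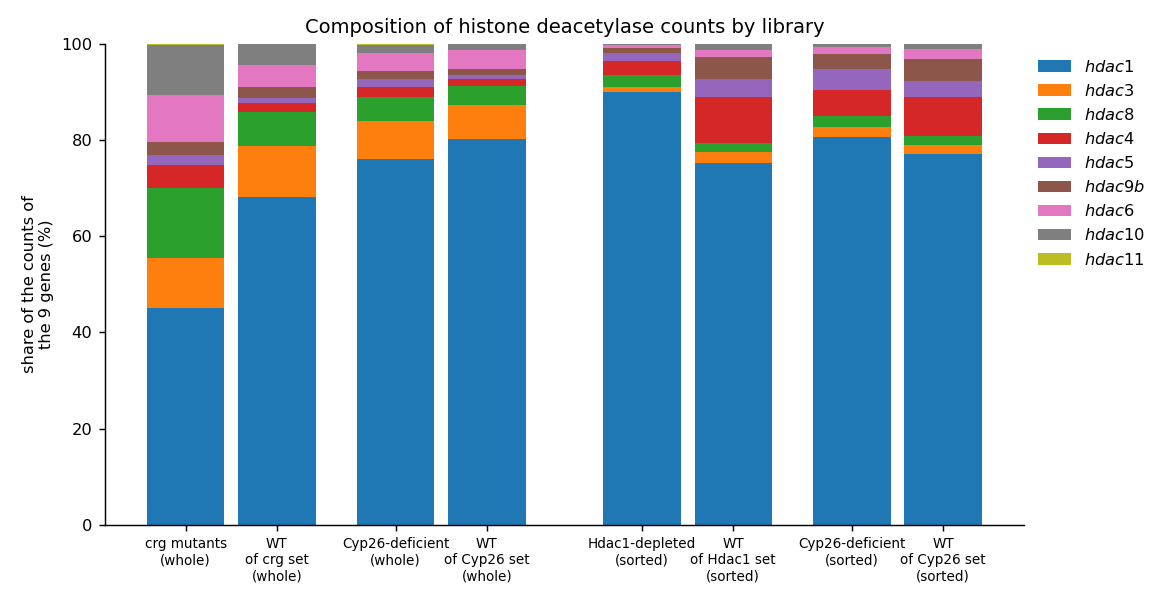
Share (vertical axis, percent) of each of the 9 genes in their summed counts, 1 bar per library, deficient libraries left of their WT controls. hdac8 is counted on its whole row. hdac1 (bottom) takes 45.0% in crg mutants against 68.2% in the WT control, and 89.97% in Hdac1-depleted sorted cells and 75.2% in their WT control.

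The class IV row was near the limit of detection. hdac11 had 5 counts in crg mutants, 5 in the WT control, 29 in Cyp26-deficient whole embryos and 9 in their WT control. In sorted cells it had 1 after Hdac1 depletion and 2 in that WT control, and 3 after Cyp26 deficiency and 5 in that WT control. A difference in this row was not detectable at this depth. HDAC11 (2 of 2) (ENSDARG00000087573) had 17 counts in Cyp26-deficient whole embryos and 2 in their WT control, a log2 fold change of 1.91 with an interval of 0.39 to 5.62. Its levels also differed between the WT libraries, with 10.7 normalized counts in the WT control of the crg pair and 1.55 in that of the Cyp26 pair. It had 8 counts in crg mutants and at most 3 in sorted cells.

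There were 4 further rows named for histone deacetylases, and 2 were for HDAC7, a class IIa gene known in mouse for its role in blood vessels. HDAC7 (1 of 2) (ENSDARG00000093701, chromosome 23) had 87.9 normalized counts in Hdac1-depleted cells against 156 in the WT control, or 0.562 times (0.436 to 0.721). The WT control of the Cyp26 pair had 110, so the sorted WT controls differed by a log2 value of 0.50 (0.14 to 0.89). HDAC7 (2 of 2) (ENSDARG00000073850, chromosome 6) had 61.2 in Hdac1-depleted cells and 13.2 in their WT control, or 4.63 times (2.66 to 8.54). The sorted WT controls differed as much for this row, with 66.6 in the WT control of the Cyp26 pair, so that it was at 0.464 times (0.285 to 0.742) in Cyp26-deficient cells with 30.9. It had 5 to 14 counts in whole embryos and was not tested there. A second row named HDAC10 (ENSDARG00000089416, chromosome 19), of 3 exons, stayed within 2-fold in all 4 comparisons, with 9 to 31 counts. That row lies between snx13 and twistnb, whereas RefSeq places hdac10 beside parvb, where the listed hdac10 row lies. Which gene it holds was therefore not settled.

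Genes that work with or against the family were counted from lists that were chosen with earlier results of these data known. Their counts stand beside shares over all tested genes of 6.43% raised and 7.78% lowered in crg mutants, 12.4% and 12.7% after Hdac1 depletion, 3.5% and 2.59% in Cyp26-deficient whole embryos and 8.81% and 7.6% in Cyp26-deficient sorted cells. Among 27 subunits of class I corepressor complexes, 2 were raised in crg mutants and 0 lowered, with a median log2 fold change of 0.03, a share close to that of all genes. The raised genes were sin3aa, a Sin3 scaffold, with 2205 normalized counts in crg mutants against 825 in the WT control, and rcor3, a CoREST subunit, with 373 and 163. In Hdac1-depleted cells 2 subunits were raised, rcor3 with 79.9 and 20.7 and rcor1 with 2023 and 953, and 0 were lowered, and the median was -0.11. After Cyp26 deficiency, rcor3 was the 1 raised subunit in sorted cells, with 29.9 and 7.404 normalized counts from 28 and 6 counts. None of the 27 passed 2-fold in Cyp26-deficient whole embryos.

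The 7 sirtuins, deacetylases of a separate family that need NAD+, had 0 raised and 0 lowered in each of the 4 comparisons. sirt3, a mitochondrial sirtuin, was nearest the limit in crg mutants, with 205 and 102 normalized counts and a log2 fold change of 0.998, and was named for that value. Of 13 rows of histone acetyltransferases, kat2b was raised in crg mutants, with 301 and 93.1 normalized counts, and none passed in the other comparisons. In Hdac1-depleted cells their log2 fold changes had a median of -0.30.

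Of 5 tested MEF2 genes, the partners of class IIa enzymes, mef2ab (row MEF2A) was lowered in Hdac1-depleted cells with 8 counts against 35, and the others stayed within 2-fold in all comparisons. Among 14 genes of proteins that Hdac6 or Hdac8 deacetylate in other species, tubulins, cortactin, Hsp90 and cohesin, 0 were raised in either setting of Hdac1 loss. In Cyp26-deficient whole embryos hsp90aa1.2 was raised, with 2215 and 620.0 normalized counts, and in Cyp26-deficient sorted cells hsp90aa1.1 was raised, with 1387 and 554.

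Among 5 tested cyclin-dependent kinase inhibitors, genes that class I deacetylases are known to repress, 2 were raised in Hdac1-depleted cells, where 12.4% of all tested genes were raised. cdkn1a (p21) had 1403 normalized counts in Hdac1-depleted cells against 417 in the WT control, and cdkn1ba had 862 and 422. cdkn1a was raised in Cyp26-deficient sorted cells too, with 686 and 209. In crg mutants cdkn1a had 120.1 and 85.9, within 2-fold. The raised rows in crg mutants were cdkn2c, with 84.7 and 35.8, and cdkn1bb, which had 4 counts and 1 count.

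Over the 4 comparisons together, the genes whose log2 fold changes lay nearest to those of hdac1 were angptl1, spata18, th, ntm and SLC12A7 (1 of 2). Likeness was the Euclidean distance over 4 values among 18194 genes tested in both tables, and their distances were 0.24, 0.24, 0.27, 0.37 and 0.40. This distance takes no account of counting error, and genes averaging as few as 10 normalized counts could enter. th, which encodes tyrosine hydroxylase, had log2 fold changes of -1.46 in crg mutants and 1.23 in Hdac1-depleted cells, and under Cyp26 deficiency of -0.36 in whole embryos and 0.08 in sorted cells. The nearest family member was hdac3, at a distance of 1.47, ranked 1752 in that order, and the farthest was hdac10, at 3.23.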

How the data were processed

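Single-end stranded libraries of whole embryos and paired-end libraries of amplified RNA from sorted cells were aligned by the authors to Zv9/danRer7 with Strand-NGS. The age of the sorted embryos, 28 hpf, is that of the labels; 1 supplementary legend of the study gives a later age. The aligner's version and read filters are not given in the sources used here. The authors deposited expected counts (estimated counts) per gene and exon, not normalized. The submitters' processing notes also name DESeq. These were rounded to integers, and size factors were taken by the median of ratios over the 4 libraries of a table (DESeq2 1.42.0, R 4.3.3). Fold changes on the log2 scale used a pseudocount of 1, and plain folds used none. No fold is given where both libraries had 3 counts or fewer. Sums of overlapping exons gave blocks. Exon counts were split between transcripts by the authors' software, and 28 hpf and 48 hpf libraries were never compared by level.

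Shares have exact binomial intervals and differences of shares have intervals built from the Wilson limits, all covering counting error only. Named genes are the 9 members, any other row whose name starts with hdac, up to 4 genes past 2-fold per list and comparison, and the 5 genes nearest to hdac1. The members and lists were chosen with earlier results of these data known. Some listed names had no row or shared 1 row, so that 27 of 30 corepressor names and 13 of 18 acetyltransferase names gave rows.

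Alternatives were TMM (edgeR 4.0.16), total counts, size factors of the pair, pseudocounts of 0.1 and 10, the other WT control, the median exon block, limits of 1.5-fold, 4-fold and the nearer interval limit, no filter, and a mean of at least 50. Counting hdac8 on its own blocks was added after the values had been seen. Intervals and the 2-fold call were tried on simulated Poisson counts with known 4-fold changes. The simulation held counting error alone, so it cannot show how the call behaves where libraries differ for other reasons. Python 3.11.15, numpy 2.4.6, pandas 2.3.3, scipy 1.17.1 and matplotlib 3.10.9 were used. Gene names were matched to RefSeq only for neighbours, and no sequence was used here.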

Additional observations from a re-analysis of the deposited data

Results flagged for a closer look

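Some members had values on opposite sides of 1-fold in 2 settings of the same deficiency, with counting intervals that excluded 1-fold in both. The difference between the settings was not tested, since each rests on 1 library per condition and the settings differ in age, tissue and preparation.

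Under loss of Hdac1, hdac1 itself had a log2 fold change of -1.29 in crg mutants and 1.19 in Hdac1-depleted sorted cells. hdac4 had 0.63 and -0.71, hdac6 had 0.39 and -0.72, and hdac10 had 0.61 and -1.26. Against the other WT library of the same age, hdac6 of crg mutants was at 0.02, with an interval that spanned 0, while hdac4 and hdac10 kept intervals above 0.

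Under Cyp26 deficiency, hdac1 had -0.35 in whole embryos and 0.29 in sorted cells, hdac3 had -0.15 and 0.27, hdac9b had 0.26 and -0.36, and hdac10 had 0.27 and -0.37. In whole embryos, none of these 4 kept an interval on the same side against the WT control of the crg pair. In sorted cells, the row values of hdac1 and hdac3 join 5′ blocks that were higher and 3′ blocks that were lower. The last block of hdac1 was at 0.748 times its WT control in whole embryos and 0.8004 times in sorted cells.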

How the results depend on the processing

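No paired analysis was possible because each condition has 1 library. In crg mutants, the count of raised members went to 1 with the other WT control (hdac10), to 2 at 1.5-fold and to 1 with hdac8 on its own blocks, and that of lowered members went to 2 at 1.5-fold and 0 at 4-fold. In Hdac1-depleted cells, the 2 raised members went to 0 at 4-fold. The 2 lowered members went to 0 with the median exon block, to 4 at 1.5-fold, to 0 at 4-fold and to 0 with the nearer interval limit past 2-fold. In Cyp26-deficient whole embryos 1 member was raised at 1.5-fold, and in Cyp26-deficient sorted cells 1 was raised with the median exon block (hdac1) and 2 at 1.5-fold. The other settings gave counts within 1.5 times.

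With the other WT control, the difference in hdac1's share of family counts was -35.1 points in crg mutants and 12.9 in Hdac1-depleted cells, and under Cyp26 deficiency 7.92 in whole embryos (turned from -4.02) and 5.42 in sorted cells. With shares per kb it was -20.5 in crg mutants, 2.47 in Cyp26-deficient sorted cells and 11.8 in Hdac1-depleted cells. The cause was not tested. Of 35 log2 fold changes of members, 35 stayed within their counting interval with TMM, 25 with total counts and 19 with the other WT control, as did 23 of 32 with the median exon block. With the other WT control, 26 of 35 kept their sign, and 2 members (hdac1 and hdac10 in Cyp26-deficient whole embryos) had intervals on opposite sides of 0. No value past 2-fold changed sign in these settings.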
